A study of Saccharomyces cerevisiae with 8 samples.

Results

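The 8 transcripts described here encode the soluble factors that carry the yeast mitochondrial ribosome through initiation, elongation, termination and recycling. They are *IFM1*, *FMT1*, *TUF1*, *MEF1*, *GUF1*, *MRF1*, *RRF1* and *MEF2*, taken by gene name from a table of 5774 listed genes. All 8 were listed and all 8 passed the filter on low values, a mean of at least 10 normalized counts, as did 5759 of the genes listed. Poly-A RNA of prototrophic *Saccharomyces cerevisiae* CEN.PK cells was sequenced, with 8 libraries in 4 groups of 2. The groups were *pbp1Δ* cells 3 h after a switch to lactate medium (YPL), WT cells 3 h after the same switch, *pbp1Δ* cells in glucose medium (YPD) and WT cells in YPD. The *pbp1Δ* strain carries a hygromycin resistance cassette in place of *PBP1*, and the WT strain is listed as MATa. The comparisons ask how the factors' mRNAs differ without Pbp1, the yeast ortholog of ataxin-2, in a respiratory and in a glycolytic medium. They also ask how each genotype responds to the switch.

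Mitochondria translate a small set of proteins from their own genome, mostly subunits of the respiratory chain, on a ribosome related to that of bacteria. The ribosomal proteins and the factors that drive them are almost all encoded in the nucleus, made in the cytosol and imported. Many of these mRNAs are known targets of Puf3, an RNA-binding protein that recognises a short element downstream of the coding sequence. Yeast in glucose ferments and needs little mitochondrial protein synthesis, whereas growth on lactate requires respiration.

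Depth, inferred from the spacing of the normalized counts, was 33651287 to 39476235 reads per library over the listed genes, with 1 read taken as 0.8916 to 1.1611 normalized counts depending on the library. On that inferred scale the members held 232 to 52413 reads per library. *PBP1* had 0 and 0.93 normalized counts in the *pbp1Δ* YPL libraries, 0 in both *pbp1Δ* YPD libraries, 11112 and 11202 in WT YPL and 12686 and 11943 in WT YPD, which fits the labels. The strains also differed in their mating-type genes. The 7 a-specific genes summed to 2097 and 2197 normalized counts in *pbp1Δ* against 15821 and 14330 in WT in YPL, and to 1924 and 1574 in *pbp1Δ* against 71534 and 86076 in WT in YPD. The 4 alpha-specific genes summed to 45681 and 41797 in *pbp1Δ* against 2008 and 2215 in WT in YPL, and to 135758 and 160790 in *pbp1Δ* against 1704 and 1680 in WT in YPD. None of the 11 genes was at 0 in any library. The receptors followed the same split in YPL, with *STE2* (a-specific) at 390 and 345 in *pbp1Δ* against 4499 and 4165 in WT, and *STE3* (alpha-specific) at 5451 and 4744 in *pbp1Δ* against 275 and 234 in WT. Loss of *PBP1* and this strain difference cannot be told apart in any genotype comparison below.

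The members are spread over 6 chromosomes of the R64 reference assembly of strain S288C, each has 1 uninterrupted coding segment, and none overlaps another annotated gene. *IFM1* (YOL023W) lies on chromosome XV from 278056 to 280086 and *TUF1* (YOR187W) on the same chromosome from 684030 to 685343. *FMT1* (YBL013W) lies on chromosome II from 202056 to 203261. *MEF1* (YLR069C) lies on chromosome XII from 271630 to 273915 on the minus strand, and *GUF1* (YLR289W) on the same chromosome from 715089 to 717026. *MRF1* (YGL143C) lies on chromosome VII from 234717 to 235958 on the minus strand, *RRF1* (YHR038W) on chromosome VIII from 184066 to 184758, and *MEF2* (YJL102W) on chromosome X from 231301 to 233760.

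The element TGTANATA, the core that Puf3 is known to bind, was searched on the gene's own strand in the 200 nt after each stop codon. Of the 8 members 6 held it, against 835 of 5768 protein-coding genes (14.5%), and *FMT1* and *MEF2* did not. *IFM1*, *MEF1* and *GUF1* held 2 elements each, and *TUF1*, *MRF1* and *RRF1* held 1. The 9 sites are shown because the fold changes are set beside them further on. Each is printed 5′ to 3′ on the mRNA's strand from the RefSeq R64 sequence, with the element in capitals.
MEF1, chrXII:271596-271603, minus strand: caaaacagtctTGTAAATAacaaattccaa
MEF1, chrXII:271499-271506, minus strand: aaagatctttcTGTAAATAcacgaatgaaa
RRF1, chrVIII:184800-184807, plus strand: atcataaatctTGTACATAaaaagttcatt
IFM1, chrXV:280182-280189, plus strand: cacacaaaaacTGTACATAtgtaaaaatac
IFM1, chrXV:280213-280220, plus strand: tatataatctaTGTAAATActgtaaactat
GUF1, chrXII:717070-717077, plus strand: ttataccaagcTGTATATAgttaagtactt
GUF1, chrXII:717095-717102, plus strand: tacttttcattTGTAAATAaaagagaaaaa
MRF1, chrVII:234688-234695, minus strand: ttttcgtttctTGTAAATAtcatatcgtat
TUF1, chrXV:685432-685439, plus strand: aattttatacgTGTAAATAaagtgccataa

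The coordinates are those of the 8 capital bases. The variable base was A in 6 of the 9 sites, C in 2 and T in 1. A cytosine stood 1 or 2 bases before the element in 7 of the 9, with the second site of *IFM1* and the second of *GUF1* as the others. Asking for that cytosine as well, an alternative added after the data were seen, left the same 6 members and 346 genes in all (6%). The first base of the elements lay 22 to 127 nt after the stop codon, and all 9 ended before the next annotated gene. In a window of 100 nt *IFM1* dropped out, leaving 5 members and 10.4% of genes. A window of 300 nt gave the same 6 members and 16.6% of genes. The reversed string ATANATGT was in 0 members and 9.92% of genes. The sequenced strain is CEN.PK, so that its own bases at these sites were not read here, and a match in sequence is not a measurement of binding.

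**Figure D1:**
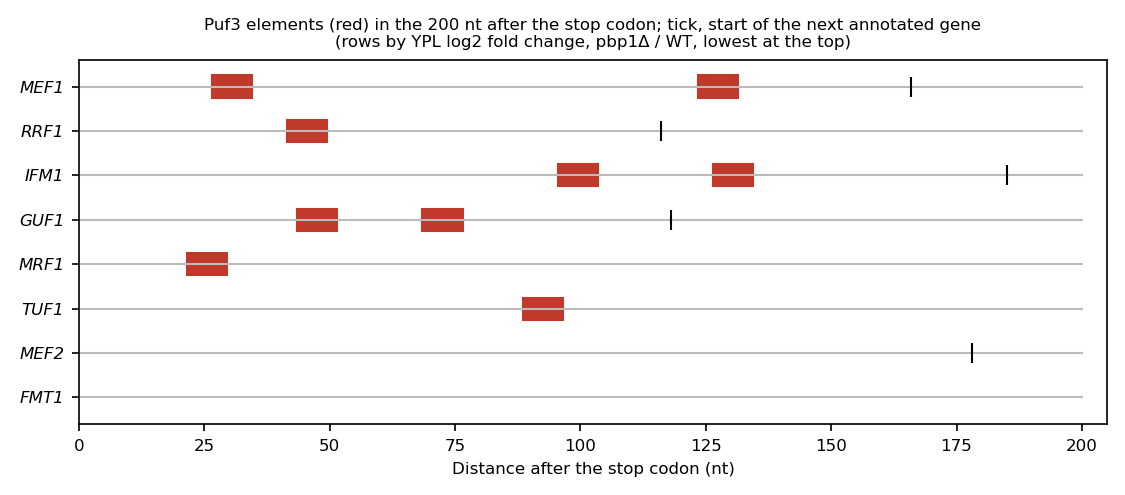
Positions of TGTANATA elements (red boxes) in the 200 nt after the stop codon of the 8 members, with distance in nt on the horizontal axis, black ticks at the next annotated gene, and members ordered from the lowest *pbp1Δ* / WT log2 fold change in YPL at the top. The 6 upper members hold 9 elements and the 2 lowest rows, *MEF2* and *FMT1*, hold none.

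Of the initiation factors, *IFM1* differed between the genotypes in YPL and *FMT1* did not pass the test in either medium. *IFM1* encodes the mitochondrial initiation factor related to bacterial IF2, a GTPase that brings the initiator tRNA to the ribosome. It had 1893 and 2301 normalized counts in *pbp1Δ* against 5061 and 5837 in WT in YPL, and 1500 and 1387 in *pbp1Δ* against 2257 and 2529 in WT in YPD. The groups did not overlap in either medium, and *pbp1Δ* cells averaged 38.5% of the WT level in YPL and 60.3% in YPD. Of all tested genes 30.1% separated in this direction in YPL and 17.8% in YPD. In the test used throughout, limma on log2(normalized count + 1) over all 8 libraries with Benjamini-Hochberg adjustment over all tested genes, the YPL log2 fold change was -1.38 (adjusted p = 0.00356, standard error 0.14). In YPD it was -0.73 (adjusted p = 0.0908, standard error 0.14). Calling a gene took an adjusted p under 0.05 together with a log2 fold change beyond 0.58 in either direction. *FMT1* encodes the transformylase that adds a formyl group to the initiator methionyl-tRNA. It had 413 and 405 normalized counts in *pbp1Δ* against 447 and 379 in WT in YPL, and 259 and 273 in *pbp1Δ* against 282 and 276 in WT in YPD. In YPL the *pbp1Δ* libraries lay between the WT libraries, with a log2 fold change of -0.0073 (95% interval -0.36 to 0.35, adjusted p = 0.985). In YPD it was -0.071 (95% interval -0.42 to 0.28, adjusted p = 1).

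Among the elongation factors *MEF1* had the lowest relative level of any member in *pbp1Δ* cells. *MEF1* encodes the mitochondrial EF-G, the GTPase that translocates the ribosome along the mRNA. It had 8483 and 8208 normalized counts in *pbp1Δ* against 23854 and 26660 in WT in YPL, and 3215 and 3707 in *pbp1Δ* against 7075 and 7918 in WT in YPD. The *pbp1Δ* cells averaged 33% of the WT level in YPL and 46.2% in YPD, and their YPL libraries were close to the WT libraries in YPD, giving log2 fold changes of -1.60 in YPL (adjusted p = 0.00147, standard error 0.11) and -1.12 in YPD (adjusted p = 0.0134, standard error 0.11). *TUF1* encodes the mitochondrial EF-Tu, which delivers aminoacyl-tRNAs. It had 34002 and 30277 normalized counts in *pbp1Δ* against 46731 and 48468 in WT in YPL, and 14196 and 15039 in *pbp1Δ* against 18416 and 19455 in WT in YPD. These libraries did not overlap in either medium, a separation in this direction that 30.1% of all tested genes showed in YPL and 17.8% in YPD. The *pbp1Δ* averages were 67.5% of WT in YPL and 77.2% in YPD. The YPL log2 fold change of *TUF1*, -0.57 (adjusted p = 0.0209, standard error 0.095), was past the p threshold and missed the fold threshold. In YPD it was -0.37 (adjusted p = 0.199, standard error 0.095) and was not called. *GUF1* encodes the mitochondrial homolog of the bacterial elongation GTPase LepA. It had 1235 and 1351 normalized counts in *pbp1Δ* against 3081 and 3313 in WT in YPL, and 1060 and 738 in *pbp1Δ* against 1176 and 1044 in WT in YPD. The YPL groups were far apart, with *pbp1Δ* at 40.4% of WT, whereas in YPD 1 *pbp1Δ* library lay between the WT libraries. Its log2 fold change was -1.31 in YPL (adjusted p = 0.0102, standard error 0.18) and -0.33 in YPD (adjusted p = 0.841, standard error 0.18).

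Of the factors that end a round of translation, the release factor and the recycling factor were lower in *pbp1Δ* cells in YPL, and the second EF-G homolog did not pass the test. *MRF1* encodes the release factor that frees the finished peptide at a stop codon. It had 3647 and 3414 normalized counts in *pbp1Δ* against 6907 and 6968 in WT in YPL, and 1756 and 1686 in *pbp1Δ* against 2553 and 2399 in WT in YPD. The *pbp1Δ* averages were 50.9% of WT in YPL and 69.5% in YPD, with no overlap. Such a separation was seen in 30.1% of all tested genes in YPL and 17.8% in YPD. On the log2 scale *MRF1* differed by -0.98 in YPL (adjusted p = 0.00301, standard error 0.089) and -0.52 in YPD (adjusted p = 0.07, standard error 0.089). *RRF1* encodes the ribosome recycling factor. It had 1230 and 1535 normalized counts in *pbp1Δ* against 3754 and 3831 in WT in YPL, and 1016 and 834 in *pbp1Δ* against 1395 and 1602 in WT in YPD. Without overlap in either medium, the *pbp1Δ* averages were 36.5% of WT in YPL and 61.7% in YPD. These gave log2 fold changes of -1.46 in YPL (adjusted p = 0.00425, standard error 0.16) and -0.70 in YPD (adjusted p = 0.145, standard error 0.16). *MEF2* encodes the other EF-G homolog, which works with the recycling factor in taking ribosomes apart. It had 4968 and 5260 normalized counts in *pbp1Δ* against 5559 and 5936 in WT in YPL, and 2470 and 2259 in *pbp1Δ* against 2560 and 2182 in WT in YPD. The *pbp1Δ* libraries lay just below the WT libraries in YPL, at 89% of WT, and overlapped with them in YPD, at 99.7%. Its fold change on the log2 scale was -0.17 in YPL (95% interval -0.44 to 0.10, adjusted p = 0.522) and -0.0010 in YPD (95% interval -0.27 to 0.27, adjusted p = 1).

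**Figure D2:**
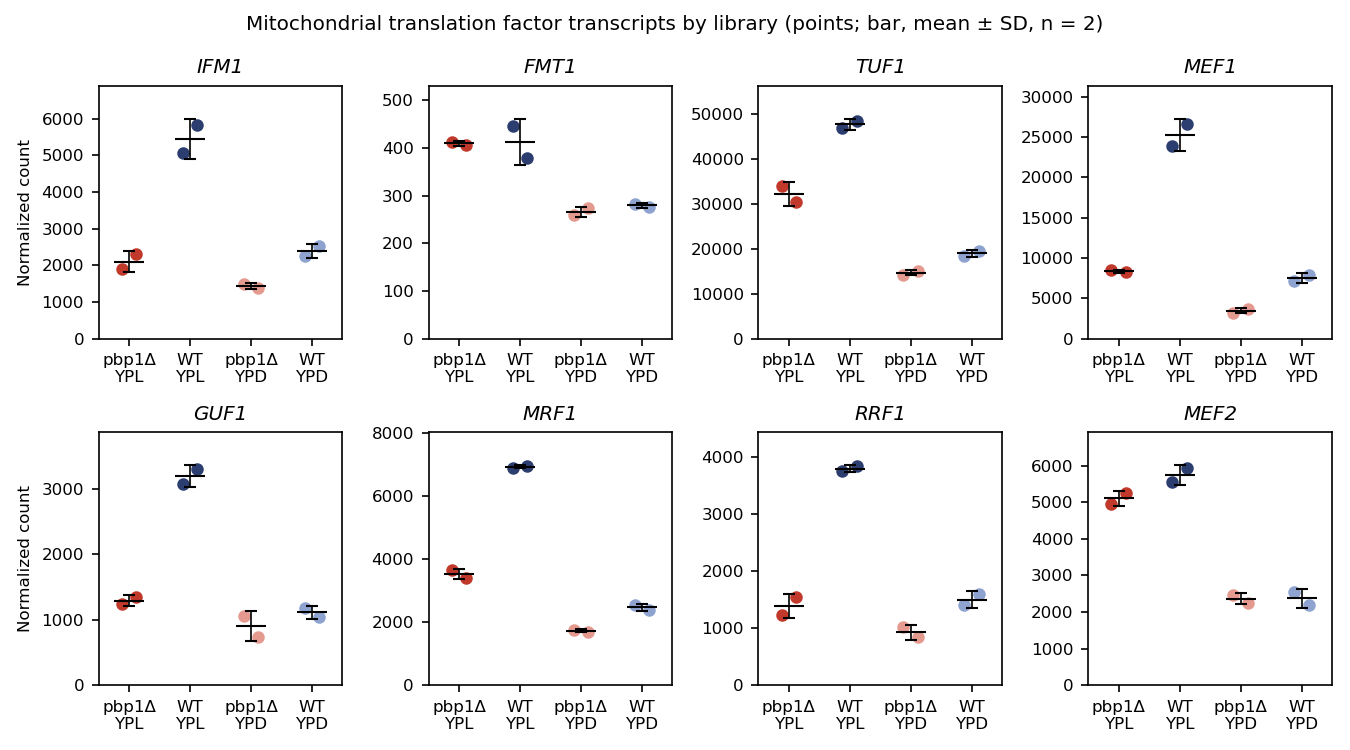
Normalized counts of the 8 members in each library (points), with the mean ± SD of the 2 libraries of each group (bars), each panel on its own linear axis from 0. In YPL the *pbp1Δ* means of *IFM1*, *MEF1*, *GUF1*, *MRF1* and *RRF1* lie at 33% to 50.9% of the WT means, that of *TUF1* at 67.5%, that of *FMT1* at 99.2% and that of *MEF2* at 89%.

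Over the 8 members in YPL, *MEF1*, *RRF1*, *IFM1*, *GUF1* and *MRF1* were called lower in *pbp1Δ* cells and none was called higher. These 5 of 8 stand beside 4.17% of all tested genes called lower and 0.521% called higher. The members' median log2 fold change was -1.14, against -0.0056 over all tested genes. All 8 values were below 0, as were those of 2924 of the 5759 tested genes. With libraries centred on their median, however, the value of *FMT1* turned to 0.055 (and that of *MEF2* in YPD to 0.069). In 7 of the 8 (all but *FMT1*) both *pbp1Δ* libraries lay below both WT libraries, as in 30.1% of all tested genes. In bulk RNA, fewer cells with a transcript and less transcript per cell cannot be told apart, and the normalized counts are relative to the rest of the poly-A RNA. The calls of *MEF1* and *MRF1* held with each library left out in turn. *IFM1* lost its call without WT YPL library 2 (log2 fold change -1.28, adjusted p = 0.052), and *RRF1* without WT YPL library 1 (-1.48, adjusted p = 0.0505) or 2 (-1.45, adjusted p = 0.0622). *GUF1* lost it without any of the 4 YPL libraries, at log2 fold changes of -1.36 and -1.25 without WT libraries 1 and 2 and of -1.24 and -1.37 without *pbp1Δ* libraries 1 and 2 (adjusted p = 0.0852, 0.117, 0.099 and 0.0572). *TUF1* gained a call without *pbp1Δ* YPL library 1 (-0.65, adjusted p = 0.0494).

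In YPD, *MEF1* was the 1 member of 8 called, as lower, where 0.868% of all tested genes were called lower. The median over the members was -0.45, against -0.018 over all tested genes. In 6 of the 8 both *pbp1Δ* libraries lay below both WT libraries, against 17.8% of all tested genes, with *GUF1* and *MEF2* as the exceptions. *IFM1*, *RRF1* and *MRF1* followed *MEF1* at -0.73, -0.70 and -0.52 and were not called. By limma 5 of the 8 had an unadjusted p under 0.05, as did 472 of the 5759 tested genes. With a block on the replicate numbers within each medium, limma also called *IFM1* (adjusted p = 0.00109) and *RRF1* (adjusted p = 0.00821). That fit called 214 genes and 3 members in YPD. The call of *MEF1* was lost without WT YPD library 2 (log2 fold change -1.04, adjusted p = 0.104) or *pbp1Δ* YPD library 1 (-1.01, adjusted p = 0.0837). It was also lost without any of the 4 YPL libraries, which enter only through the estimate of the spread (adjusted p = 0.0521 to 0.0555), and with the YPD libraries fitted alone (adjusted p = 0.279). Replicates differed less in YPL than in YPD. The SD over all genes of the log2 difference between the 2 libraries of a group was 0.31 in *pbp1Δ* and 0.22 in WT cells in YPL, against 0.53 in *pbp1Δ* and 0.58 in WT cells in YPD. Libraries of the genotypes with the same replicate number deviated together in YPD (correlation 0.855) and less so in YPL (0.243). The fit without a block counts this shared spread as error.

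**Figure D3:**
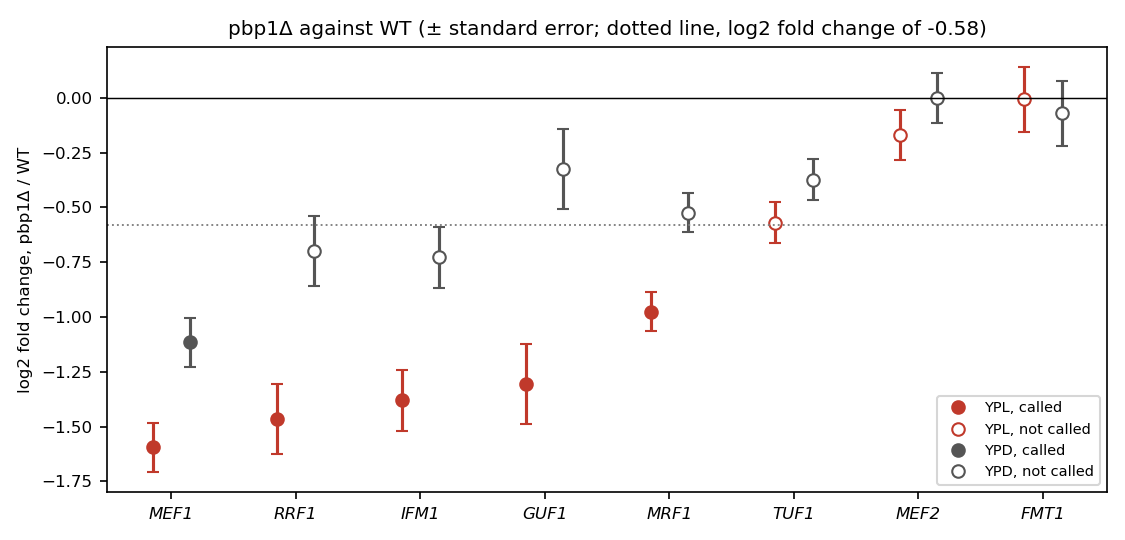
Log2 fold changes of *pbp1Δ* against WT for each member in YPL (red) and YPD (grey), with its standard error, filled where called, and the fold threshold dotted. The values run from -1.60 for *MEF1* to -0.0073 for *FMT1* in YPL and from -1.12 for *MEF1* to -0.0010 for *MEF2* in YPD.

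For 7 of the 8 members the genotype difference was more negative in YPL than in YPD, as it was for 2797 of the 5759 tested genes. None of the members' differences between media passed the test. That outcome depends on the fit. With a block on the replicate numbers within each medium, whose meaning is not stated, limma called 5 members and 360 genes. The YPL log2 fold change minus that in YPD was -0.98 for *GUF1* (adjusted p = 0.557, standard error 0.26), -0.76 for *RRF1* (adjusted p = 0.616), -0.65 for *IFM1* (adjusted p = 0.616), -0.48 for *MEF1* (adjusted p = 0.64) and -0.45 for *MRF1* (adjusted p = 0.587). It was -0.20 for *TUF1*, -0.17 for *MEF2* and 0.063 for *FMT1*. By limma without a block 0 members were called, and 5 had an unadjusted p under 0.05. Of all tested genes 4 (0.0695%) were called, with 404 at an unadjusted p under 0.05. The genotype comparisons of the media share no libraries, whereas each shares libraries with the comparisons of media below.

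After the switch to lactate all 8 members had more normalized counts in both libraries than in glucose, in *pbp1Δ* and in WT cells alike. Such a separation was seen in 37.6% of all tested genes in *pbp1Δ* and 38.5% in WT cells. In *pbp1Δ* cells 5 members were called higher in YPL than in YPD, against 18.1% of all tested genes. They were *MEF1* (log2 fold change 1.27, adjusted p = 0.000274), *TUF1* (1.14, adjusted p = 0.00022), *MEF2* (1.11, adjusted p = 0.000476), *MRF1* (1.04, adjusted p = 0.000244) and *FMT1* (0.62, adjusted p = 0.0145). *RRF1*, *GUF1* and *IFM1* had 0.578, 0.546 and 0.533 with adjusted p = 0.0253, 0.0503 and 0.0208, and were not called. *RRF1* and *IFM1* missed the fold threshold, *RRF1* narrowly. *GUF1* missed the fold threshold and, narrowly, the p threshold. The median was 0.83, against 0.011 over all tested genes. In WT cells 7 members were called higher, against 19.3% of all tested genes, with a median of 1.34 against -0.0012. *MEF1* rose the most (1.75, adjusted p = 9.86e-05), followed by *GUF1* (1.53), *MRF1* (1.49), *RRF1* (1.34), *TUF1* (1.33), *MEF2* (1.28) and *IFM1* (1.19), with adjusted p from 7.64e-05 to 0.000884. *FMT1* had 0.56 (adjusted p = 0.0212) and missed the fold threshold.

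The responses of the genotypes to the switch stand side by side as follows. *MEF2* had log2 fold changes of 1.11 in *pbp1Δ* and 1.28 in WT cells, *TUF1* had 1.14 in *pbp1Δ* and 1.33 in WT cells, and *FMT1* had 0.62 in *pbp1Δ* and 0.56 in WT cells. For *GUF1* the values were 0.55 in *pbp1Δ* and 1.53 in WT cells, for *RRF1* 0.58 in *pbp1Δ* and 1.34 in WT cells, and for *IFM1* 0.53 in *pbp1Δ* and 1.19 in WT cells. The test of these differences is the one between media given above, which no member passed in the fit without a block. In *pbp1Δ* cells the call of *FMT1* was lost without any of the 4 *pbp1Δ* libraries (adjusted p = 0.0506 to 0.0641), with libraries centred on their median (0.49, adjusted p = 0.035) and with the *pbp1Δ* libraries fitted alone (adjusted p = 0.0552). *IFM1* and *RRF1* gained calls without *pbp1Δ* YPD library 1 (0.59 and 0.72, adjusted p = 0.0465 and 0.0275) or *pbp1Δ* YPL library 1 (0.67 and 0.74, adjusted p = 0.0228 and 0.0278). *GUF1* gained one without *pbp1Δ* YPD library 1 (0.81, adjusted p = 0.0111). In WT cells *FMT1* gained a call without WT YPL library 2 (0.68, adjusted p = 0.049), and the other 7 calls held with each library left out.

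**Figure D4:**
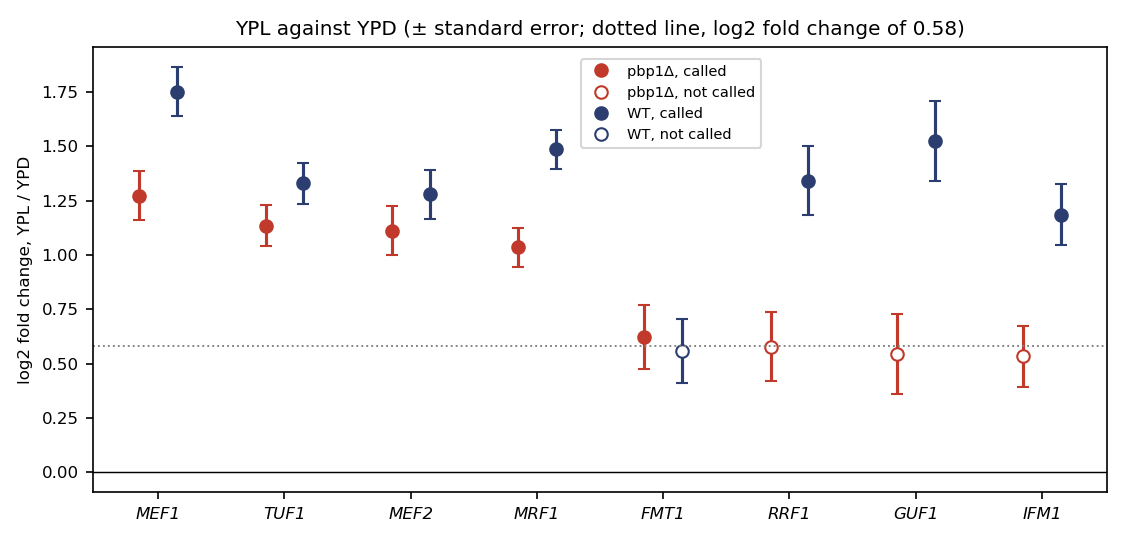
Log2 fold changes of YPL against YPD for each member in *pbp1Δ* (red) and WT cells (blue), with its standard error, filled where called, and the fold threshold dotted. *MEF1*, *TUF1*, *MEF2* and *MRF1* were called in both genotypes, *FMT1* in *pbp1Δ* only by the thresholds used, and *RRF1*, *GUF1* and *IFM1* in WT only by the same thresholds.

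Levels can be compared between members after division by coding length. In *pbp1Δ* cells in YPL, *TUF1* stood first with 24460 ± 2005 normalized counts per kb (SD, n = 2), followed by *MEF1* (3651 ± 85), *MRF1* (2842 ± 133), *MEF2* (2079 ± 84), *RRF1* (1995 ± 311), *IFM1* (1033 ± 142), *GUF1* (667 ± 42.1) and *FMT1* (339 ± 4.66). The libraries of *MEF2* and *RRF1* overlapped, and no other neighbours did. In WT cells in YPL the order was *TUF1* (36225 ± 934), *MEF1* (11049 ± 868), *MRF1* (5586 ± 34.6), *RRF1* (5473 ± 78.5), *IFM1* (2683 ± 270), *MEF2* (2336 ± 108), *GUF1* (1650 ± 84.7) and *FMT1* (342 ± 39.7). No neighbours overlapped there, and the closest were *MRF1* and *RRF1*, at 5561 and 5529 in their nearest libraries. *MEF2* therefore stood above *RRF1* and *IFM1* in the mean of *pbp1Δ* cells and below both in that of WT cells. *TUF1* was at the 94.3 percentile of all listed genes per kb in *pbp1Δ* and the 96.3 percentile in WT cells in YPL, and *FMT1* at the 7.09 percentile in *pbp1Δ* and the 7.23 percentile in WT cells.

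In YPD *TUF1* again stood first, with 11124 ± 454 per kb in *pbp1Δ* and 14411 ± 559 in WT cells (SD, n = 2 each), and *FMT1* last, with 220 ± 8.28 in *pbp1Δ* and 231 ± 3.56 in WT cells. *MEF1* (1514 ± 152), *MRF1* (1385 ± 39.8) and *RRF1* (1335 ± 186) lay close together in *pbp1Δ* YPD, with overlapping libraries, above *MEF2* (961 ± 60.9), *IFM1* (711 ± 39.5) and *GUF1* (464 ± 117). In WT YPD *MEF1* (3279 ± 261) stood apart from *RRF1* (2162 ± 212) and *MRF1* (1994 ± 87.7), which overlapped, and were followed by *IFM1* (1178 ± 94.4), *MEF2* (964 ± 109) and *GUF1* (573 ± 48.2). In YPD, too, *MEF2* stood above *IFM1* in *pbp1Δ* and below it in WT cells, without overlap of their libraries.

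The proportions within the set can be read from the same levels. Per kb, *MEF2* was at 54.4% and 59.5% of *MEF1* in the *pbp1Δ* YPL libraries, against 21.7% and 20.7% in WT YPL. It was at 71.4% and 56.6% in *pbp1Δ* YPD, against 33.6% and 25.6% in WT YPD. All 4 *pbp1Δ* libraries lay above all 4 WT libraries. Relative to *TUF1* per kb, *MEF1* was at 14.3% and 15.6% in *pbp1Δ* YPL against 29.3% and 31.6% in WT YPL, and at 13.0% and 14.2% in *pbp1Δ* YPD against 22.1% and 23.4% in WT YPD. *IFM1* was at 3.6% and 4.92% of *TUF1* in *pbp1Δ* YPL against 7.01% and 7.79% in WT YPL, and *RRF1* at 6.86% and 9.61% in *pbp1Δ* YPL against 15.2% and 14.99% in WT YPL. *MRF1* was at 11.3% and 11.9% of *TUF1* in *pbp1Δ* YPL against 15.6% and 15.2% in WT YPL, and *GUF1* at 2.46% and 3.02% in *pbp1Δ* YPL against 4.47% and 4.63% in WT YPL. *FMT1* and *MEF2* stood the other way round, *FMT1* at 1.32% and 1.46% in *pbp1Δ* YPL against 1.04% and 0.852% in WT YPL and *MEF2* at 7.8% and 9.28% in *pbp1Δ* YPL against 6.35% and 6.54% in WT YPL. *TUF1*, the denominator, was itself at 67.5% of the WT level there. These ratios are descriptions, with no test.

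Set beside the sequence after the stop codon, the 6 members with a TGTANATA element had log2 fold changes of -1.60 to -0.57 in *pbp1Δ* against WT cells in YPL (median -1.34), and the 2 without one had -0.17 and -0.0073. In YPD the ranges were -1.12 to -0.33 (median -0.61) with an element and -0.071 and -0.0010 without. The ranges did not overlap in either medium. The members with 2 elements, *MEF1*, *IFM1* and *GUF1*, had -1.60, -1.38 and -1.31 in YPL, and those with 1, *RRF1*, *MRF1* and *TUF1*, had -1.46, -0.98 and -0.57. In the response to YPL of *pbp1Δ* cells the ranges overlapped, 0.53 to 1.27 with an element and 0.62 and 1.11 without, and in WT cells they were 1.19 to 1.75 with an element and 0.56 and 1.28 without. The mRNA of *PUF3* itself was not called in either genotype comparison, with 3589 and 2974 normalized counts in *pbp1Δ* against 3604 and 3867 in WT in YPL, and 1577 and 1843 in *pbp1Δ* against 1548 and 2142 in WT in YPD. Its *pbp1Δ* libraries lay below the WT libraries in YPL, as in 30.1% of all tested genes, and between them in YPD. Not being called does not show that its level was equal. With 8 genes the division is a description, and these libraries do not measure binding by Puf3.

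Genes that work beside the factors gave a mixed picture. Of 12 accessory genes 2 were called lower in *pbp1Δ* cells in YPL, against 4.17% of all tested genes, with a list median of -0.58. They were *PET112* (log2 fold change -1.12, adjusted p = 0.00327) and *HER2* (-1.02, adjusted p = 0.00546), subunits of the amidotransferase that makes mitochondrial glutaminyl-tRNA. *GTF1*, the remaining subunit, had -0.19 (adjusted p = 0.537). *AIM23*, which encodes the initiation factor related to bacterial IF3, had -0.81 (adjusted p = 0.0766). *MTQ1*, whose product methylates the release factor, had 0.0092 (adjusted p = 0.986), and the release factor relatives *PTH4* and *RSO55* had -0.94 and 0.13 (adjusted p = 0.143 and 0.928). The ribosome assembly GTPases *MTG1* and *MTG2* had -0.17 and -0.72 (adjusted p = 0.591 and 0.0645), and the tRNA modification genes *MTO1*, *MSS1* and *SLM3* had -0.85, -0.43 and -0.35 (adjusted p = 0.118, 0.121 and 0.135). In YPL 10 of the 12 values were below 0 and 2 above. By limma 8 of the 12 had an unadjusted p under 0.05 there, as did 1026 of the 5759 tested genes. In YPD 0 of the 12 were called by limma (3 at an unadjusted p under 0.05), with a median of -0.21. The element was found after 8 of the 12.

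The mitochondrial aminoacyl-tRNA synthetases, which charge the tRNAs that Tuf1 carries, were called lower in YPL for 12 of 13, with a median of -1.20 and a range of -1.78 to -0.67. *MSY1*, the tyrosyl enzyme, had the largest change (-1.78, adjusted p = 0.000652), with 2638 and 2605 normalized counts in *pbp1Δ* against 8797 and 9254 in WT cells, followed by *MSF1*, the phenylalanyl enzyme (-1.43, adjusted p = 0.0129). In YPD 5 of 13 were called lower, with a median of -0.62. The 78 listed mitoribosomal subunits, on which the factors act, had a median of -1.14 in YPL, equal at this rounding to that of the factors, and 72 were called lower. By size *MRPL38* led (-2.08, standard error 1.14, adjusted p = 0.418) on very few reads, with 10.5 and 1.86 normalized counts in *pbp1Δ* against 28.5 and 19.0 in WT cells, and *MRPL24* came next (-1.72, adjusted p = 0.0027). The smallest, -0.27, was that of *YMR31*, singled out after its values were seen, which was first described as a ribosomal subunit and is now placed in the α-ketoglutarate dehydrogenase complex. In YPD 18 of the 78 were called lower, with a median of -0.64. All 13 synthetases and 76 of the 78 subunit genes held the element.

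The cytosolic counterparts of the factors were not called in either medium by limma, 0 of 8 in each. In YPL 1 of the 8 had an unadjusted p under 0.05, with a list median of 0.069, and in YPD 0 of the 8, with a median of -0.22. The largest values in YPL were 0.40 for *TEF2* and 0.36 for *TEF1* (adjusted p = 0.29 and 0.356), copies of the gene for cytosolic EF1A whose near-identical sequence makes a count of uniquely mapped reads uncertain. *SUP45*, the cytosolic release factor, had -0.34 (adjusted p = 0.155). Against YPD, 4 of the 8 were called lower in YPL in *pbp1Δ* cells (15.1% of all tested genes were) and 7 in WT cells (15.7%), the opposite direction to the mitochondrial factors, and 0 were called higher. The element was found after 1 of the 8.

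**Figure D5:**
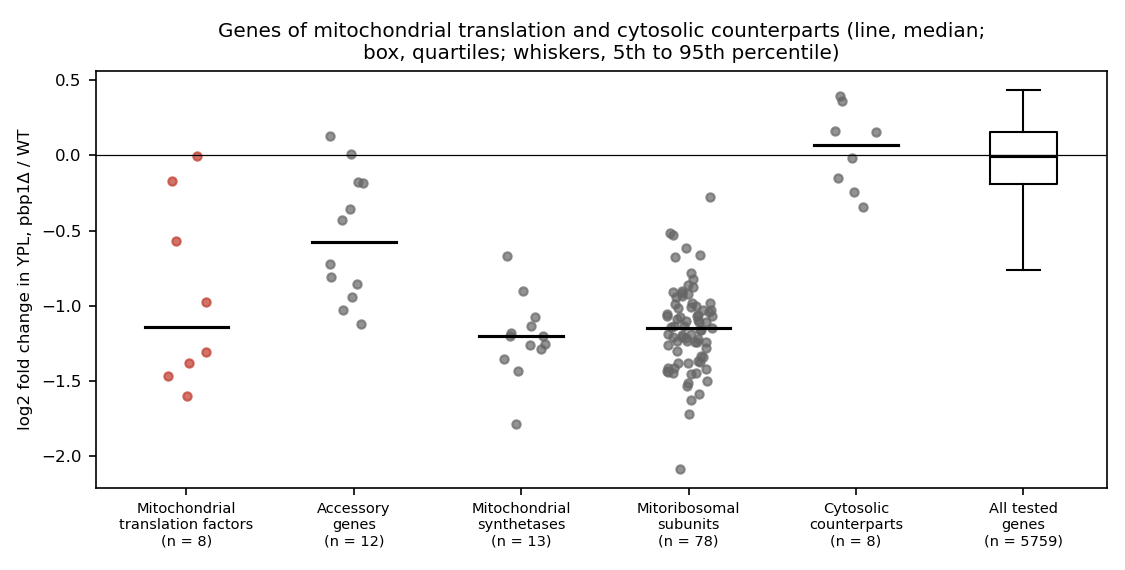
Log2 fold changes of *pbp1Δ* against WT in YPL for each gene (points) of the 8 factors, 12 accessory genes, 13 mitochondrial synthetases, 78 listed mitoribosomal subunits and 8 cytosolic counterparts, with each list's median (line), beside the quartiles and the 5th to 95th percentiles of all 5759 tested genes. The list medians are -1.14, -0.58, -1.20, -1.14 and 0.069, and the factors span the range from the synthetases' values to 0.

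Across the 8 libraries the factors did not follow their common profile equally. The Pearson correlation of each member's log2 values with the mean profile of the other 7 was 0.995 for *MRF1*, 0.973 for *MEF1*, 0.956 for *TUF1* and *GUF1*, 0.941 for *RRF1*, 0.931 for *IFM1*, 0.833 for *MEF2* and 0.801 for *FMT1*. All of these correlations share the difference between media. Among genes that are not members, those closest to the mean profile of the 8 were *AIM32* (0.998), which encodes a mitochondrial thioredoxin-like protein, *DIA4* (0.997) and *MSD1* (0.997), the seryl and aspartyl synthetases of mitochondria, *MBA1* (0.996), which encodes a receptor for the mitoribosome at the inner membrane, and *MRPL25* (0.996), a large-subunit protein. Of the 50 closest genes 16 were on the mitoribosomal list, which holds 78 of the 5759 tested genes. The points of each correlation are 8 libraries in 4 groups, and no p is given.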

How the data were processed

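Poly-A RNA-seq libraries of *pbp1Δ* and WT cells in YPL and YPD were analysed, 2 per group, with groups taken from the sample labels. The labels call the libraries of a group biological replicates, and whether they came from separate cultures is not stated further, so that p-values measure the spread between these libraries. According to the methods and the submitters' processing notes, the authors trimmed paired-end reads with Trim Galore, mapped them to the S288C genome with STAR 2.7.3a, counted uniquely mapped reads per gene with featureCounts (Subread 1.6.3) on an R64 annotation and used DESeq2 3.16. The table that the authors deposited holds normalized counts, a signal on a linear scale: reads per gene over 1 factor per library, not scaled by gene length. Whether counting used the strand is not given in the sources used here, which bears on overlapping genes, of which none is a member.

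All 5774 identifiers matched the R64 reference annotation. In each library every value up to 2000 times 1 number was a whole multiple of that number at a tolerance of 0.01. This number was taken as 1 read, and larger values were not checked. Because too few low values were there to secure this, no count model was run. The paper describes its supplementary expression data as raw read counts, and these were not used here. For 5759 genes, those whose mean reached 10, log2(normalized count + 1) was modelled on the 4 groups at once with limma 3.58.1 under R 4.3.3, with moderation by a mean trend. The adjusted p is the Benjamini-Hochberg value over all tested genes, called under 0.05 with an absolute log2 fold change over 0.58, and for the difference between media on the adjusted p alone. The fit was tested on simulated data first. Elements and lengths came from the R64 genome, and the other tables and plots were made with Python 3.11.15, pandas 2.3.3, numpy 2.4.6 and matplotlib 3.10.9.

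The members, lists and tests were chosen with earlier results of these data known. The genes named are the 8 members, *PBP1*, the accessory genes, from each other list the 2 genes with the largest change between the genotypes in YPL, the 5 genes most like the members' mean profile, and *STE2* and *STE3* as mating-type genes. *PUF3*, *SUP45* and *YMR31* lie outside that rule and were named after their values were seen. Alternatives used a pseudocount of 0.5 or 8, no filter or a minimum mean of 100, another scaling, fewer libraries in the fit, and changed the replicate block, the trend, the fold threshold and the element window, with each library also left out in turn. Tests with edgeR and DESeq2 on recovered reads and a description of the proteins were planned and not run.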

Additional observations from a re-analysis of the deposited data

How the results depend on the processing

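Each member's fold change and each count of calls was recomputed under the alternatives that apply to its comparison. The fold threshold and the fit of the compared groups alone do not apply to the difference between media, nor the block within each medium to the medium responses. Of the members' values 735 stayed on the same side of the threshold with the same sign, 21 gained a call, 20 lost one and 8 changed sign, all 8 of uncalled members near 0. *FMT1* in YPL turned to 0.055 with libraries centred on their median, and with 1 library left out ranged from -0.13 to 0.11 (0.11 without WT YPL library 1, 0.0067 without *pbp1Δ* YPL library 2). Its difference between media ranged from -0.055 (without WT YPL library 2) to 0.18. *MEF2* in YPD turned to 0.069 with centring and 0.049 without replicate 1 of both genotypes in YPD, and with 1 library left out ranged from -0.12 to 0.11 (0.11 without WT YPD library 1, 0.064 without *pbp1Δ* YPD library 2).

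With 270 genes called in YPL, the count was 457 with the YPL libraries fitted alone, 454 and 456 without the YPD libraries numbered 1 and 2, and 61 to 277 with 1 library left out (61 and 89 without WT YPL libraries 2 and 1, 118 without *pbp1Δ* YPL library 1), while 2 to 5 members were called. With 56 called in YPD, the count was 29 with centring, 14 with the YPD libraries alone, where 0 members were called, and 15 to 19 with 1 library left out, with 0 to 1 members. With 4 genes called for the difference between media, the count was 20 and 30 without the YPD libraries numbered 1 and 2, and 3 to 5 with 1 library left out, with 0 members throughout. The medium response in *pbp1Δ* cells had 4 to 7 members and 1620 to 2035 genes called with 1 library left out, and 8 members without the YPD libraries numbered 1. In WT cells it had 7 to 8 members and 1463 to 2232 genes. Leaving out a library leaves 1 in its group, which is then taken to vary like the others. The pseudocounts, the filters, the fit without a trend and the lifted fold threshold left each count within 1.5 times the value reported.

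The replicate numbers did not count as pairing, since only 2 numbers are shared and their meaning is not stated, although libraries of the genotypes with the same number deviated together (correlation 0.243 in YPL and 0.855 in YPD). A replicate block over both media left 5 members called in YPL, 1 in YPD and 0 for the difference between media. A replicate block within each medium gave 503 genes in YPL, 214 genes and 3 members in YPD (*MEF1*, *IFM1* and *RRF1*), and 360 genes and 5 members for the difference between media (*GUF1*, *IFM1*, *MEF1*, *RRF1* and *MRF1*). In WT cells the log2 differences between replicates 2 and 1 correlated at -0.217 between the media. With the numbers of the WT YPL libraries crossed, an alternative added after the data were seen, 2008 genes and 7 members were called between media in WT cells. With the numbers as given, 1576 genes and 7 members were called. On the inferred read scale each member held at least 232 reads in every library, and each group only 2 libraries. Tests with edgeR and DESeq2 on recovered reads were not run, because whole reads could not be secured for enough low values.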
